A study of Mus musculus with 15 samples.

Results

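Gene expression was compared between LSK cells of Nras(G12D) mice and LSK cells of wild-type (WT) mice. LSK cells are the bone marrow fraction that lacks lineage markers and carries Sca1 and cKit, and they hold the blood stem cells and the earliest progenitors. All genes with a log2 value of at least 0 in 3 or more of the 6 libraries were kept, which left 13099 of the 44827 genes in the authors' table. A log2 value of 0 is 1 CPM, a gene's count scaled to its library size. There were 3 libraries from C57BL/6 mice of the Nras(G12D) genotype and 3 from C57BL/6 WT mice. Per the series' design text, the mutations were conditional in the haematopoietic tissue; the Cre driver is not given in the sources used here. The same text names 6 months as the age at which methylation was studied. The labels do not say whether WT mice carried the Cre or a floxed allele. Whether the 3 libraries of a genotype are from different mice is not in the labels, so a p-value here reflects variation among libraries, part of which may be technical. The series has 15 libraries in 5 groups of 3. The double mutant Tet2-/- Nras(G12D) without leukemia and Tet2-/- are used below to read the same mutation on another background. For some genes their levels are also set beside WT. The leukemic double mutant enters only the shared estimate of the spread.

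Nras is a small GTPase that switches between a GTP-bound active and a GDP-bound inactive state. The G12D change slows GTP hydrolysis and so favours the active state, which signals through RAF, MEK and ERK kinases and through PI3K. ERK induces transcription factors of the immediate early and ETS classes, and it also induces its own brakes, the Sprouty and SPRED proteins and the dual-specificity phosphatases. NRAS mutations are common in human myeloid malignancies.

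The 6 libraries held 23821717 to 43562909 counts, the deepest being Nras(G12D) library 2. Correlations of log2 values across genes were 0.916 to 0.942 between Nras(G12D) libraries, 0.968 to 0.977 between WT libraries and 0.912 to 0.973 between the groups, so the Nras(G12D) libraries differed more among themselves than the WT libraries did. Nras(G12D) library 2 stood apart in 2 ways. It alone held transcripts of Y-linked genes: Ddx3y was at 0.0369, 91.5 and 0 CPM in Nras(G12D) libraries 1 to 3, against 0.457, 0.0782 and 0.0366 CPM in WT. Xist, the RNA of the inactive X, was at 773, 0.284 and 649 CPM in Nras(G12D), against 490, 433 and 366 CPM in WT. It also held the most transcripts of mature neutrophils: Ngp, a neutrophil granule protein gene, was at 41.2, 1400 and 25.9 CPM in Nras(G12D), against 49.5, 76.5 and 35.4 CPM in WT. Of the genes that define the gate, cKit (Kit) was at 434, 1830 and 799 CPM in Nras(G12D), against 1170, 1130 and 1420 CPM in WT. Sca1 (Ly6a) was at 101, 59.3 and 129 CPM in Nras(G12D), against 103, 87.5 and 73.6 CPM in WT. Cd34, a progenitor surface gene, was at 969, 2010 and 1390 CPM in Nras(G12D), against 1400, 1310 and 1430 CPM in WT. These genes were present in each of the 6 libraries, and in each of them the Nras(G12D) values spread around the WT values.

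No gene passed the test between Nras(G12D) and WT. The log2 values of all 15 libraries were fitted with limma, and 0 of 13099 genes (0%) had an adjusted p below 0.05, the smallest being 0.113. At an unadjusted p below 0.05 there were 503 genes, 223 with higher values in Nras(G12D) (1.7%) and 280 with lower values (2.14%). A second description needs no model: a gene's groups do not overlap when all 3 Nras(G12D) values lie above, or all 3 below, the 3 WT values. Groups did not overlap for 718 genes with higher values in Nras(G12D) (5.48%) and for 831 with lower values (6.34%). With scaling by total counts in place of the authors' scaling these counts were 410 higher and 1085 lower. Without Nras(G12D) library 2 they were 2396 (18.3%) and 2365 (18.1%). Both also grew by over 1.5 times without Nras(G12D) library 3 (1911 and 2085) or WT library 2 (1314 and 1257). The higher count did so without Nras(G12D) library 1 (1455, beside 1088 lower). Without WT library 3 they were 798 and 998. Leaving out any 1 library leaves 2 values against 3, which are easier to separate. The cause of the differences between these counts was not tested. With 1 library left out, the shares over all genes were thus 6.09% to 18.3% higher and 7.62% to 18.1% lower, and the counts of gene lists without a library are to be read against these. The median standard error of a log2 change was 0.36, and 651 genes (4.97%) had a change of more than 1 in either direction. Values below are therefore descriptions of these 6 libraries unless a test is named. "Lay above" and "lay below" mean that groups did not overlap.

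**Figure D1:**
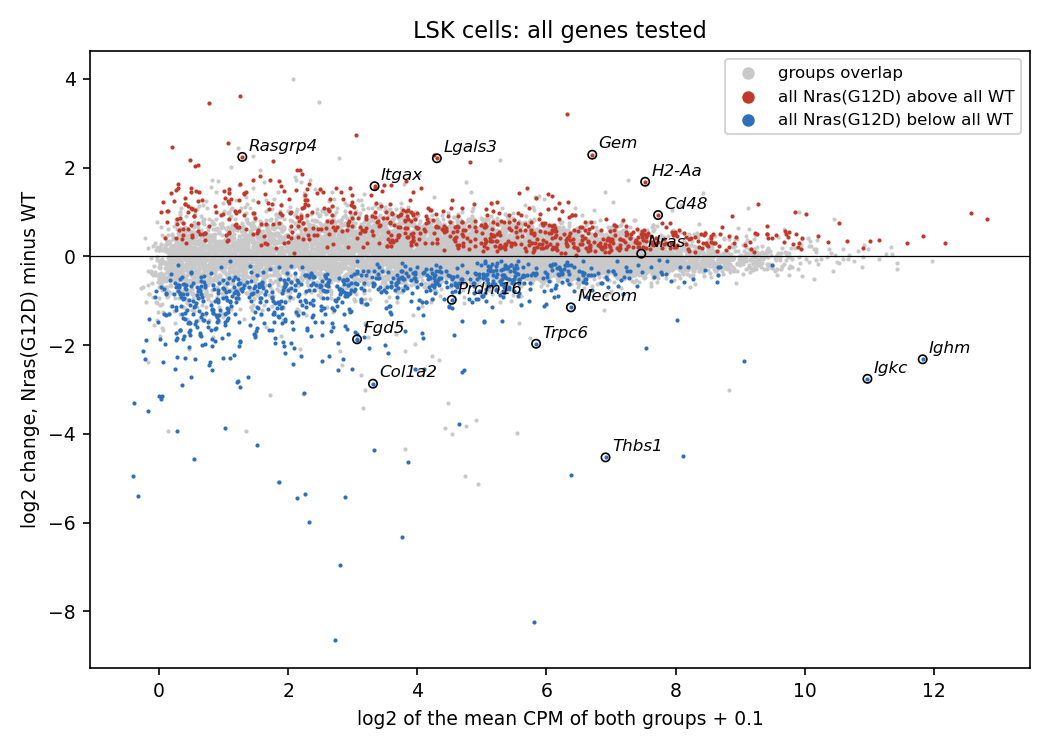
The log2 change, Nras(G12D) minus WT, of each of 13099 genes is plotted against the log2 of the mean CPM of both groups. Red points are the 718 genes whose Nras(G12D) values all lay above WT, blue points the 831 whose values all lay below, and grey points the rest; circled genes are named. Thbs1 (-4.53), Col1a2 (-2.87) and Igkc (-2.76) stand far below 0, and Lgals3 (2.21) and Gem (2.29) above it.

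The transcripts of Nras itself did not differ in amount beyond the spread. Nras lies on chromosome 3 of GRCm38 (103058285 to 103067914, plus strand) and was at 153, 200 and 191 CPM in Nras(G12D), against 179, 172 and 167 CPM in WT. Its log2 change was 0.06 ± 0.19 (standard error, limma adjusted p = 0.988), and a codon change cannot be read from a gene total. Of 187 tested genes within 10 Mb of Nras, groups did not overlap for 25 (13.4%), and over all 12764 tested genes with 1 position in GENCODE M21 the share was 11.9%. Hras, another RAS isoform, had 9.56, 2.27 and 2.85 CPM in Nras(G12D), against 2.44, 2.74 and 1.46 CPM in WT, and the groups overlapped. Mras, a more distant RAS relative, lay below WT at 2.29, 1.78 and 1.7 CPM in Nras(G12D), against 3.58, 3.09 and 3.48 CPM in WT. Of the 15 RAS isoforms and RAS GTPase-activating proteins, 13 had a change above 0 and the median log2 change was 0.47, beside -0.02 over all genes tested. Library 1 carried much of this: the list's median in each library, relative to the WT mean, was 0.96, 0.15 and 0.14 in Nras(G12D), against 0.02, 0.18 and -0.09 in WT, and the median change was 0.17 without Nras(G12D) library 1 and 0.28 without library 2. Nf1, the GTPase-activating protein lost in neurofibromatosis, was at 18.9, 8.6 and 13 CPM in Nras(G12D), against 9.03, 9.62 and 7.18 CPM in WT, with library 2 again inside the WT range.

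Upstream of RAS, 2 of 13 tested exchange factors and adaptors lay above WT (15.4%, beside 5.48% over all genes) and none below. Rasgrp4, an exchange factor that loads RAS with GTP, was at 6.53, 2.32 and 2.94 CPM in Nras(G12D), against 0.534, 0.782 and 0.952 CPM in WT (log2 2.24 ± 0.59, adjusted p = 0.69). Grb2, the adaptor that brings the exchange factor SOS to receptors, was at 86.9, 36.9 and 33.1 CPM in Nras(G12D), against 23.7, 30.7 and 19.5 CPM in WT. Both were highest in Nras(G12D) library 1. Of 15 RAF, MEK and ERK kinases and scaffolds, 1 lay above WT (6.67%) and none below. The scaffold Ksr1 was at 17.4, 5.24 and 7.4 CPM in Nras(G12D), against 5.11, 5.56 and 2.78 CPM in WT, and the groups overlapped. None of 24 PI3K, AKT and mTOR genes lay above or below WT, and their median log2 change was -0.05.

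The brakes that ERK induces had higher values in Nras(G12D) as a group, without a call. All 13 tested feedback inhibitors had a log2 change above 0, with a median of 0.62, beside -0.02 over all genes; none passed the test and 2 lay above WT (15.4%, beside 5.48%). The list's median, taken in each library relative to the WT mean, was 1.41, 0.41 and 0.48 in Nras(G12D), against -0.36, 0.12 and -0.03 in WT. Dusp7, a phosphatase of ERK, was at 23.6, 10.8 and 10.7 CPM in Nras(G12D), against 8.61, 8.76 and 5.97 CPM in WT (log2 0.87 ± 0.40, adjusted p = 0.984). Spry1, a Sprouty inhibitor of the pathway, was at 8.19, 4.08 and 5.2 CPM in Nras(G12D), against 2.36, 4.07 and 3 CPM in WT, so its lowest Nras(G12D) value all but touched the highest WT value. Spred2, which acts on RAF activation, was at 29, 21.7 and 12.8 CPM in Nras(G12D), against 7.7, 14.2 and 10.3 CPM in WT (log2 0.94 ± 0.32, adjusted p = 0.984), and its groups overlapped. Spry2 had 6.09, 2.61 and 4.89 CPM in Nras(G12D), against 2.63, 2.35 and 1.79 CPM in WT, and overlapped by 1 library. Spry4 had 4.65, 7.96 and 2.54 CPM in Nras(G12D), against 1.3, 1.84 and 3.29 CPM in WT. Dusp6, the ERK phosphatase most used as a readout of the pathway, was at 154, 304 and 184 CPM in Nras(G12D), against 124, 173 and 186 CPM in WT, so only library 2 exceeded the WT range. The list's median was 0.89 and 7 of 13 lay above WT (53.8%, beside 18.3% over all genes) when Nras(G12D) library 2 was left out. With scaling by total counts, median centring or an added count of 2, 1 of 13 lay above WT (7.69%, beside 3.13%, 4.24% and 5.47%). With quantile normalization 4 did (30.8%, beside 4.84%). The count also grew by over 1.5 times without Nras(G12D) library 3 (5, or 38.5%, beside 14.6%), WT library 2 (4, or 30.8%, beside 10%) or WT library 3 (4, or 30.8%, beside 6.09%). It was 3 (23.1%) without Nras(G12D) library 1 or WT library 1, beside 11.1% and 7.49%.

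The transcription factors that ERK induces were mixed. Of 16 tested output genes 3 lay above WT (18.8%, beside 5.48% over all genes) and none below, with a median log2 change of 0.17. Etv4, an ETS factor, was at 2.25, 1.99 and 0.991 CPM in Nras(G12D), against 0.0762, 0.548 and 0.476 CPM in WT (log2 2.47 ± 0.94, adjusted p = 0.984). Fosb, an AP-1 subunit, was at 2.03, 2.07 and 6.38 CPM in Nras(G12D), against 0.648, 0.548 and 0.329 CPM in WT. Ccnd1, which encodes the G1 cyclin D1, was at 58.3, 73 and 38 CPM in Nras(G12D), against 20, 36.3 and 32 CPM in WT. These are small differences in level for Etv4 and Fosb, which were close to the lower limit of the genes kept. Egr1, an immediate early factor, had 6.42, 5.94 and 7.56 CPM in Nras(G12D), against 5.95, 12.2 and 8.13 CPM in WT, and its groups overlapped. Etv5 was at 42.9, 131 and 28.8 CPM in Nras(G12D), against 21, 49.5 and 45.5 CPM in WT, and its change of 0.59 became -0.04 without Nras(G12D) library 2. Of 16 immediate early genes 14 had a change above 0 and 3 lay above WT (18.8%), Fosb, Klf6 and Btg2. The number above WT was 8 (50%, beside 10% over all genes) without WT library 2, 6 (37.5%, beside 14.6%) without Nras(G12D) library 3 and 5 (31.2%, beside 18.3%) without Nras(G12D) library 2. Btg2, an antiproliferative gene, was at 85, 128 and 133 CPM in Nras(G12D), against 78.4, 65.4 and 73 CPM in WT.

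**Figure D2:**
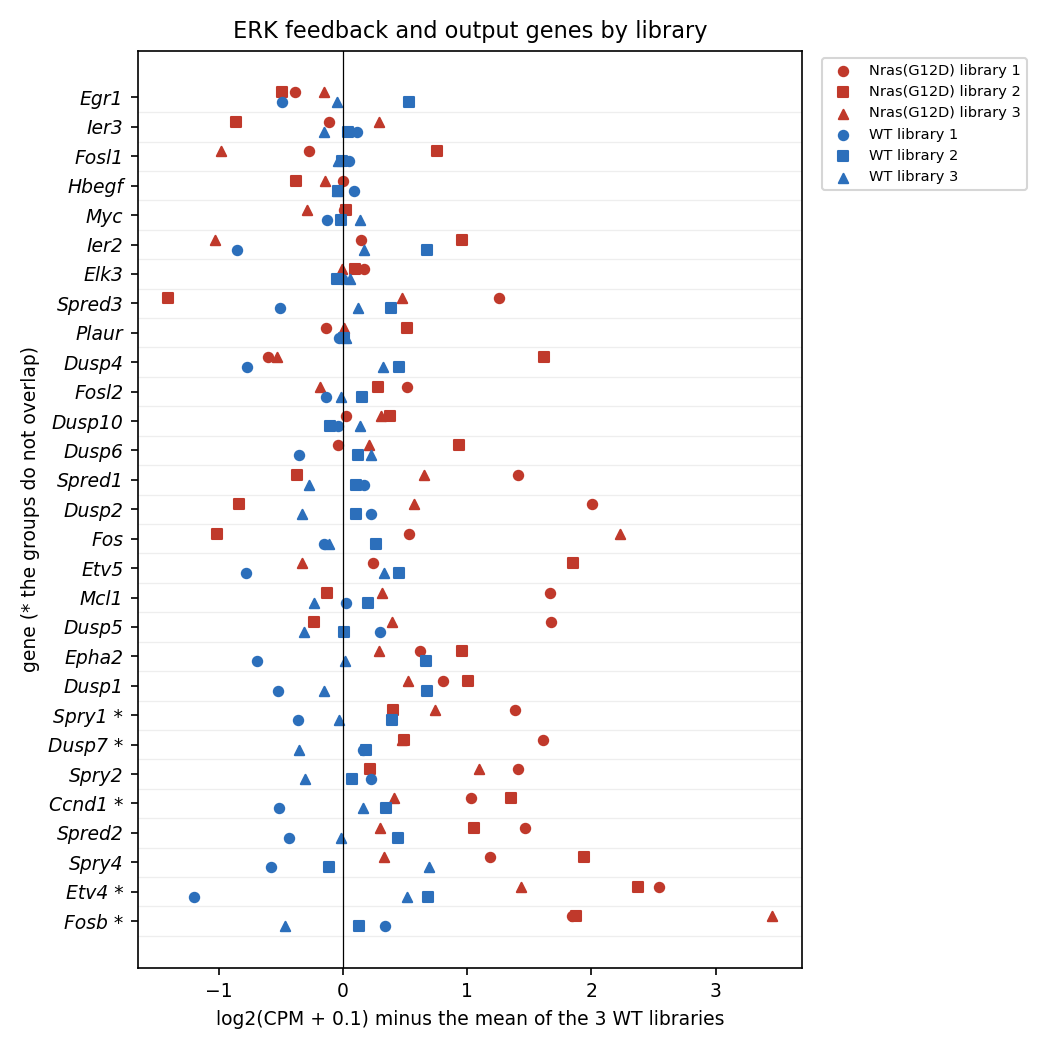
Each row is 1 ERK feedback or output gene, with the 3 Nras(G12D) libraries (red) above the 3 WT libraries (blue), as log2(CPM + 0.1) minus the WT mean; a star marks groups that do not overlap. Red points lie mostly to the right of 0 from Spry1 down, and Nras(G12D) libraries 1 and 2 often lie far apart, as for Spred1, Dusp2 and Etv5.

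Most genes of the haematopoietic stem cell list had lower values in Nras(G12D). Of 30 haematopoietic stem cell genes, all tested, 24 had a log2 change below 0 and the median was -0.52, beside -0.02 over all genes. Groups did not overlap for 16 of them, all lower in Nras(G12D) (53.3%, beside 6.34% over all genes), and for none in the other direction. No member passed the test. The list's median was -0.64, -0.64 and -0.42 in the Nras(G12D) libraries, against 0, -0.09 and 0.09 in WT. The summed level of the list, to which abundant members such as Kit and Cd34 add most, did not separate the groups: it was 3660, 6850 and 4580 CPM in Nras(G12D), against 5830, 5590 and 6390 CPM in WT, with Nras(G12D) library 2 the highest of the 6. Leaving out Nras(G12D) library 2 gave a median of -0.51 and 19 genes below WT (63.3%, beside 18.1% over all genes); with scaling by total counts 17 did, and leaving out any other of the 6 libraries left 16 to 18. The lower values were therefore present in Nras(G12D) libraries 1 and 3 as well.

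The stem cell genes that lay below WT include receptors, transcription factors and surface proteins. Tek, the angiopoietin receptor Tie2, was at 16.1, 24 and 27.2 CPM in Nras(G12D), against 43.9, 38.5 and 49.7 CPM in WT. Even its highest Nras(G12D) library was well under the lowest WT library. Prdm16, a transcription factor needed for stem cell maintenance, was at 17.2, 14.6 and 14.7 CPM in Nras(G12D), against 30, 30.9 and 30.9 CPM in WT (log2 -0.98 ± 0.34, adjusted p = 0.984). Both groups were tight for Prdm16, with 15.5 ± 1.44 CPM in Nras(G12D) and 30.6 ± 0.482 CPM in WT (SD, n = 3 each), while the spread that limma used also draws on the other 9 libraries. In the fit to the 6 libraries alone its adjusted p was 0.318. Mecom, a zinc-finger factor of stem cells, was at 36.4, 60.1 and 60.1 CPM in Nras(G12D), against 112, 92.9 and 138 CPM in WT. Hlf, another stem cell factor, was at 166, 179 and 169 CPM in Nras(G12D), against 254, 217 and 238 CPM in WT.

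Among surface and signalling genes, Fgd5, a reporter gene for mouse stem cells, was at 4.02, 3.36 and 3.28 CPM in Nras(G12D), against 13.6, 12.7 and 12.7 CPM in WT (log2 -1.87 ± 0.78, adjusted p = 0.984). Procr, the protein C receptor used to sort stem cells, was at 16.2, 17.2 and 30.3 CPM in Nras(G12D), against 44.5, 37.4 and 38 CPM in WT. Trpc6, a calcium channel gene, was at 14.9, 20.4 and 35.9 CPM in Nras(G12D), against 97.9, 56.7 and 117 CPM in WT (log2 -1.97 ± 0.63, adjusted p = 0.954). In each case the 3 WT libraries were above the 3 Nras(G12D) libraries by a clear gap. Ndn, an imprinted gene linked to quiescence, was at 2.55, 4.44 and 3.75 CPM in Nras(G12D), against 11.2, 12.5 and 15.3 CPM in WT. Clec1a was at 5.46, 2.45 and 3.78 CPM in Nras(G12D), against 10.7, 12.8 and 14.7 CPM in WT. For Vwf, the von Willebrand factor gene, the groups only just failed to overlap, at 36.1, 35.3 and 43 CPM in Nras(G12D) against 43.4, 49.4 and 77.5 CPM in WT. In bulk samples, fewer cells of a type and less RNA per cell cannot be told apart, here and in all that follows.

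**Figure D3:**
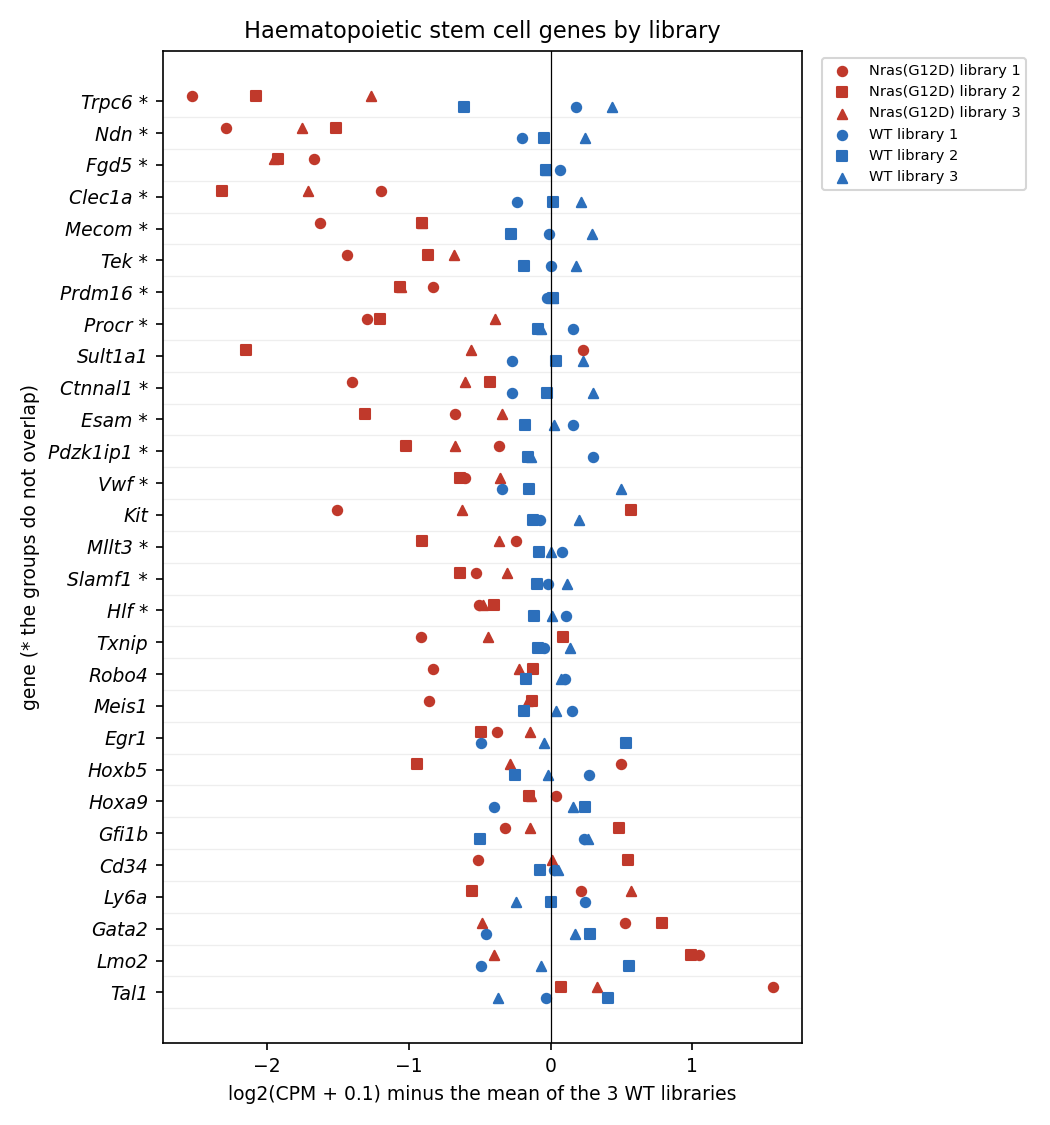
Each row is 1 of 29 haematopoietic stem cell genes of the list, with the 3 Nras(G12D) libraries (red) above the 3 WT libraries (blue), as log2(CPM + 0.1) minus the WT mean; a star marks groups that do not overlap. The 15 starred genes all have the red points left of the blue ones, and Tal1, Lmo2, Gata2 and Ly6a at the bottom show no such separation.

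The SLAM surface genes that divide LSK cells into stem cells and multipotent progenitors differed in direction. Cd48, a SLAM family gene that is low on long-term stem cells and present on multipotent progenitors, lay above WT at 251, 299 and 283 CPM in Nras(G12D), against 149, 158 and 131 CPM in WT (log2 0.93 ± 0.21, adjusted p = 0.535). Slamf1, which encodes the stem cell marker CD150, lay below WT at 8.34, 7.7 and 9.76 CPM in Nras(G12D), against 11.9, 11.3 and 13.1 CPM in WT (log2 -0.49 ± 0.57, adjusted p = 0.984). Of 12 SLAM and progenitor surface genes, a list chosen after values were seen, 2 lay above WT and 2 below. That is 16.7% each way, beside 5.48% and 6.34% over all genes. In this list 9 changes were above 0 and 3 below, with a median of 0.24. Flt3, a receptor of lymphoid-primed progenitors, was at 529, 963 and 367 CPM in Nras(G12D), against 273, 439 and 424 CPM in WT, and overlapped.

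Genes of lymphoid priming, which include transcription factors, recombination genes and receptors, had somewhat higher values in Nras(G12D). Of the 20 genes 17 had a change above 0, with a median of 0.41. By library it was 0.25, 0.48 and 0.43 in the Nras(G12D) libraries, against -0.03, 0.09 and -0.04 in WT. Groups did not overlap for 4 of 20 with higher values (20%, beside 5.48% over all genes): Satb1, Ikzf1, Foxp1 and Runx2. Ikzf1, which encodes Ikaros, was at 205, 184 and 140 CPM in Nras(G12D), against 116, 136 and 126 CPM in WT (log2 0.47 ± 0.23, adjusted p = 0.984). Satb1, a chromatin organiser of lymphoid progenitors, was at 168, 102 and 68.6 CPM in Nras(G12D), against 51.4, 66.2 and 49.1 CPM in WT. Ikzf3, a factor of later B cells, lay below WT at 0.96, 0.697 and 0.774 CPM in Nras(G12D), against 3.51, 1.53 and 1.46 CPM in WT. The number above WT was 9 (45%, beside 11.1% over all genes) without Nras(G12D) library 1, 8 (40%, beside 18.3%) without library 2 and 8 (40%, beside 14.6%) without library 3.

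Myeloid genes differed by lineage. Of 18 monocyte and macrophage genes 6 lay above WT (33.3%, beside 5.48% over all genes) and none below. The list was mixed in sign, with 11 changes above 0 and 7 below, and the median log2 change was 0.11. That median was 0.32 without Nras(G12D) library 1 and 0.38 without Nras(G12D) library 2, while the number above WT was 6 or 7 with any of the 6 libraries left out. By library the median was 0.56, 0.39 and 0.25 in Nras(G12D), against 0.04, -0.1 and 0.11 in WT, so that all 3 Nras(G12D) libraries were above WT. Lgals3, which encodes galectin-3 and is abundant in macrophages, was at 36.2, 36.3 and 24.5 CPM in Nras(G12D), against 5.3, 8.14 and 7.47 CPM in WT. Its log2 change of 2.21 ± 0.40 had the smallest adjusted p, 0.198, among the named genes with higher values, and after quantile normalization it passed the test. In Tet2-/-, a group without Nras(G12D) in its label, Lgals3 was at 41.7 ± 25.1 CPM (SD, n = 3). Ccr2, the chemokine receptor of inflammatory monocytes, was at 83.4, 64.9 and 88.3 CPM in Nras(G12D), against 40.5, 37.7 and 42.2 CPM in WT (log2 0.96 ± 0.37, adjusted p = 0.984). Mpeg1, which encodes perforin-2, was at 140, 72.4 and 77.1 CPM in Nras(G12D), against 39.6, 45.6 and 44.8 CPM in WT. For these genes all 3 Nras(G12D) libraries were high. Lyz2, the macrophage and granulocyte lysozyme gene, lay above WT mainly through library 2, at 343, 930 and 343 CPM in Nras(G12D), against 321, 297 and 295 CPM in WT. Itgb2, the leukocyte integrin CD18, was at 81, 133 and 91.8 CPM in Nras(G12D), against 47.7, 49.6 and 49.2 CPM in WT (log2 1.03 ± 0.29, adjusted p = 0.827).

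The median of 17 mature neutrophil genes was 1.16, but 1 library decided it. The list's median was 0.04, 4.57 and -0.54 in the Nras(G12D) libraries, against 0.05, 0.37 and -0.27 in WT, and its summed level was 359, 4980 and 345 CPM in Nras(G12D), against 518, 492 and 445 CPM in WT. The median change was -0.41 without Nras(G12D) library 2, 1.89 without library 1 and 2.21 without library 3. Ly6g, a defining neutrophil marker, was at 0.332, 12.8 and 0.248 CPM in Nras(G12D), against 0.915, 1.06 and 0.366 CPM in WT. Groups did not overlap for 2 of the 17 (11.8%, beside 5.48% over all genes), Cxcr2 and Fcnb, both higher in Nras(G12D). Cxcr2, the neutrophil chemokine receptor, was at 11.7, 20.3 and 8.86 CPM in Nras(G12D), against 7.36, 5.91 and 6 CPM in WT. Fcnb, a ficolin of maturing granulocytes, was at 5.54, 22.7 and 7.19 CPM in Nras(G12D), against 1.87, 4.69 and 4.25 CPM in WT. Among progenitor genes of the granulocyte-monocyte lineage, Nkg7 lay above WT at 324, 289 and 299 CPM in Nras(G12D), against 177, 203 and 159 CPM in WT, and the list's median was 0.22.

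Genes of antigen presentation had higher values in Nras(G12D), most of all in library 1. MHC class II molecules present peptides to CD4 T cells. Their genes are switched on together by the coactivator CIITA through promoter elements that include the Y box. Of 7 genes searched in the RefSeq promoter table, class II genes and Ciita, 4 were matched, all of them class II genes. Their promoters are printed because the mean of each gene was higher in Nras(G12D). The groups overlapped for H2-Eb1. For H2-DMb1 the lowest Nras(G12D) value equalled the highest WT value at the rounding used below. Whether the Y box has a part in these values was not tested. Each sequence is the 150 bases before the RefSeq gene start in GRCm38.p6, read 5′ to 3′ on the gene's strand, with the Y box letters ATTGG, or CCAAT on the other strand, in capitals.
H2-Aa: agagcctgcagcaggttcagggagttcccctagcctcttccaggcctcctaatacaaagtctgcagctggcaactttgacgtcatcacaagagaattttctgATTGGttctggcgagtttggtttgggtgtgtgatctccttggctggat
H2-Eb1: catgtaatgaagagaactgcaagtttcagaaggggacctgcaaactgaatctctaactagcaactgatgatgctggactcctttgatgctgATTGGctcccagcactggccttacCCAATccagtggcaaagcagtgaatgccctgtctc
H2-DMb1: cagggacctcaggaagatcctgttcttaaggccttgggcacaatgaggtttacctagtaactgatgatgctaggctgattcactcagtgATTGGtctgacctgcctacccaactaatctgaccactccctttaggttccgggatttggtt
H2-DMb2: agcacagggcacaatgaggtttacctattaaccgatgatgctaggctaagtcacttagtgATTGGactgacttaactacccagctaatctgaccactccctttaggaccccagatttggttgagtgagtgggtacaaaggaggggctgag
The stretches lie on chromosome 17 at chr17:34287824-34287973 (minus strand) for H2-Aa, and on the plus strand at chr17:34305717-34305866 for H2-Eb1, chr17:34153041-34153190 for H2-DMb1 and chr17:34145099-34145248 for H2-DMb2. GENCODE M21 starts H2-Aa and H2-Eb1 right after these stretches, but it starts H2-DMb1 at 34153072 and H2-DMb2 at 34143307, so most of the H2-DMb1 stretch and all of the H2-DMb2 stretch lie inside the gene in that annotation. All 4 hold the motif, which is found in 24.5% of the 32851 promoters of the table in the same 150 bases. A match of letters is a description and not a bound site. The other genes searched were H2-Ab1, H2-DMa and Ciita.

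Of 21 genes of dendritic cells and antigen presentation 20 had a log2 change above 0, with a median of 0.89. Groups did not overlap for 9 with higher values (42.9%, beside 5.48% over all genes) and for 1 with lower values (4.76%, beside 6.34%), Irf4. No member passed the test. H2-Aa, the class II alpha chain whose promoter is printed above, was at 540, 101 and 240 CPM in Nras(G12D), against 50.8, 83 and 94.4 CPM in WT (log2 1.68 ± 0.53, adjusted p = 0.954). H2-Eb1, a class II beta chain, was at 477, 61.7 and 205 CPM in Nras(G12D), against 36.4, 64 and 72.6 CPM in WT, so library 2 lay inside the WT range. Ciita, the coactivator, was at 33.6, 9.79 and 24.3 CPM in Nras(G12D), against 5.11, 8.45 and 9.19 CPM in WT (log2 1.44 ± 0.52, adjusted p = 0.984). These 3 genes kept the same order over the Nras(G12D) libraries, with library 1 highest and library 2 lowest. H2-DMb2, a chain of the peptide exchange factor, was at 15.3, 8.5 and 15.9 CPM in Nras(G12D), against 6.82, 6.61 and 7.18 CPM in WT. H2-DMb1 was at 77.3, 42.8 and 65.8 CPM in Nras(G12D), against 38.9, 37.2 and 42.8 CPM in WT, with its lowest Nras(G12D) value equal to the highest WT value at this rounding.

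Itgax, March1, Xcr1 and Batf3, linked to dendritic cells or class II molecules, had the same order over the Nras(G12D) libraries. They differed in whether library 2 lay above WT. Itgax, which encodes CD11c, was at 16.8, 12.5 and 15.7 CPM in Nras(G12D), against 5.68, 4.03 and 5.34 CPM in WT (log2 1.58 ± 0.48, adjusted p = 0.909). March1, a ubiquitin ligase that removes class II molecules from the surface, was at 9.74, 4.37 and 7.34 CPM in Nras(G12D), against 1.33, 2.23 and 2.16 CPM in WT. In both, all 3 Nras(G12D) libraries lay above WT. Xcr1, a marker of cross-presenting dendritic cells, was at 42.4, 3.05 and 21.9 CPM in Nras(G12D), against 3.16, 3.87 and 7.69 CPM in WT, and Batf3, a factor those cells need, was at 7.53, 0.491 and 1.89 CPM in Nras(G12D), against 0.152, 0.626 and 0.805 CPM in WT. The summed level of the list was 5480, 2480 and 2940 CPM in Nras(G12D), against 1500, 1830 and 1890 CPM in WT. The part of such cells in the class II values was not tested. Without Nras(G12D) library 2 the median was 1.18 and 15 of 21 lay above WT (71.4%, beside 18.3% over all genes), and without Nras(G12D) library 1 the median was 0.53 with 10 above WT (47.6%, beside 11.1%). The count of 9 depended on the scaling: it was 4 (19%) with scaling by total counts or median centring, beside 3.13% and 4.24% over all genes, and 5 (23.8%, beside 4.84%) after quantile normalization, with medians of 0.83 to 0.9.

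Genes of mast cells, basophils and eosinophils had higher values in Nras(G12D), without a call. Of 14 tested 12 had a log2 change above 0, and the median was 0.47. By library that median was 0.64, 0.47 and 0.82 in Nras(G12D), against -0.21, 0.38 and -0.36 in WT. Groups did not overlap for 4 with higher values (28.6%, beside 5.48% over all genes) and for none with lower values. Without Nras(G12D) library 2 the median change was 0.74 and 8 lay above WT (57.1%, beside 18.3%). Cpa3, a mast cell carboxypeptidase gene, was at 45.9, 144 and 61.6 CPM in Nras(G12D), against 25.7, 34.8 and 29.4 CPM in WT (log2 1.32 ± 0.47, adjusted p = 0.984). Gata1, the factor of erythroid, megakaryocytic and mast cells, was at 49.3, 68.9 and 44.7 CPM in Nras(G12D), against 27.4, 32.5 and 33.8 CPM in WT. Of 18 megakaryocyte and platelet genes 3 lay above WT and 3 below (16.7% each, beside 5.48% and 6.34% over all genes), Vwf and Thbs1 among the lower ones. Pf4, platelet factor 4, was at 146, 54.7 and 96.5 CPM in Nras(G12D), against 31, 47.7 and 30.5 CPM in WT. Of 23 erythroid genes 2 lay above WT (8.7%, beside 5.48%) and 1 below (4.35%, beside 6.34%), with a median of 0.19. Without Nras(G12D) library 3, 9 (39.1%, beside 14.6% over all genes) lay above WT.

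**Figure D4:**
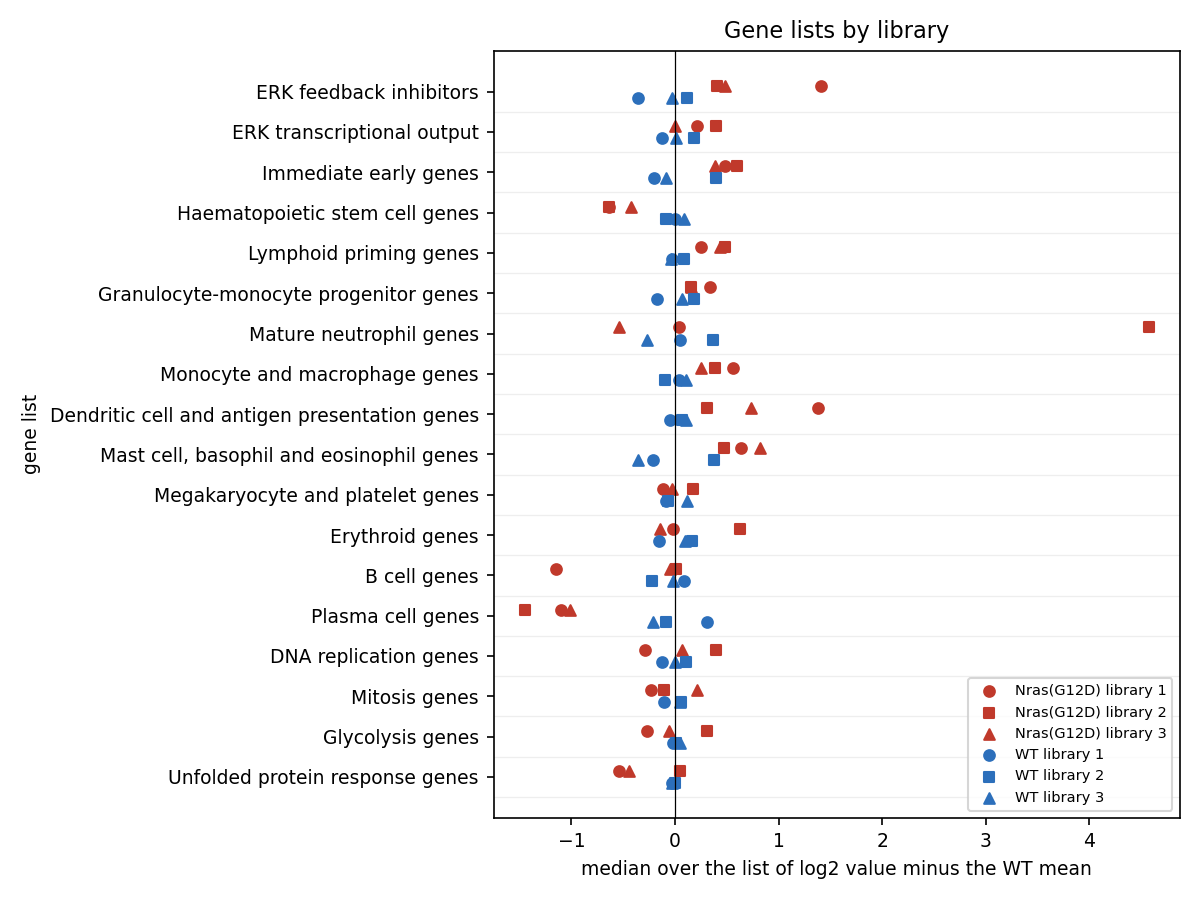
The median over each gene list of the log2 value minus the WT mean is plotted for the 3 Nras(G12D) libraries (red, upper) and the 3 WT libraries (blue, lower). Stem cell genes and plasma cell genes have all red points left of the blue ones, dendritic cell and feedback genes have them to the right, and the neutrophil list has Nras(G12D) library 2 at 4.57.

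The WT libraries held more of the most abundant antibody transcripts. Of 10 immunoglobulin constant region genes, a list chosen after values were seen, 5 lay below WT (50%, beside 6.34% over all genes) and 2 above (20%, beside 5.48%), 4 had a change above 0 and the median was -1.65. Their summed level was 1860, 1030 and 3070 CPM in Nras(G12D), against 15500, 5840 and 8080 CPM in WT. Ighm, the heavy chain constant gene of IgM, was at 1060, 693 and 1910 CPM in Nras(G12D), against 9380, 3700 and 5080 CPM in WT (log2 -2.32 ± 0.53, adjusted p = 0.535). Igkc, the kappa light chain constant gene, was at 599, 175 and 924 CPM in Nras(G12D), against 5720, 2040 and 2590 CPM in WT (log2 -2.76 ± 0.75, adjusted p = 0.712). Jchain, which joins secreted antibody chains, was at 152, 75.8 and 305 CPM in Nras(G12D), against 1560, 474 and 639 CPM in WT. In all 3 genes the highest Nras(G12D) library was at less than the lowest WT library, and WT library 1 was highest. Reads of near-identical immunoglobulin genes may be assigned to either copy. The 2 higher genes were Igha and Ighd. Igha, the IgA heavy chain gene, lay above WT at 105, 110 and 149 CPM in Nras(G12D), against 33.2, 0.782 and 81.8 CPM in WT. Ighd, the heavy chain gene of IgD, was at 5.87, 10.5 and 8.24 CPM in Nras(G12D), against 5.26, 4.66 and 5.16 CPM in WT.

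Of 18 plasma cell genes, a list chosen after values were seen, 9 lay below WT (50%, beside 6.34% over all genes). In the other direction 1 lay above (5.56%, beside 5.48%), and the median was -0.92. Their summed level was 583, 671 and 604 CPM in Nras(G12D), against 2050, 1010 and 1120 CPM in WT. Pou2af1, a B cell coactivator, was at 3.76, 2.69 and 7.09 CPM in Nras(G12D), against 42.2, 16.7 and 20.3 CPM in WT (log2 -2.54 ± 0.60, adjusted p = 0.535). Irf4, the factor that drives plasma cell differentiation and also serves dendritic cells, was at 1.62, 2.3 and 4.46 CPM in Nras(G12D), against 14.9, 6.06 and 10.7 CPM in WT (log2 -1.95 ± 0.45, adjusted p = 0.535). Prdm1, which encodes Blimp-1, was at 1.66, 1.7 and 2.51 CPM in Nras(G12D), against 5.49, 4.89 and 3.7 CPM in WT. Fam46c, a plasma cell gene often mutated in human myeloma, was at 4.87, 6.41 and 8.15 CPM in Nras(G12D), against 30.9, 13.9 and 19.7 CPM in WT. Among 17 general B cell genes 4 lay below WT (23.5%, beside 6.34% over all genes) and 3 above (17.6%, beside 5.48%). Their median was -0.34, and it was -0.06 without Nras(G12D) library 1 and -0.59 without WT library 2. Cd79a, a chain of the B cell receptor, was at 1.37, 4.26 and 2.66 CPM in Nras(G12D), against 12.8, 4.97 and 5.27 CPM in WT, while Cd22 lay above WT at 1.62, 1.01 and 2.29 CPM in Nras(G12D), against 0.457, 0.665 and 0.513 CPM in WT. Pax5, a defining B cell factor, was at 0.336 CPM or less in each of the Nras(G12D) libraries, and at 0.313 CPM or less in each of the WT libraries. The part of antibody-secreting cells in the other lower values was not tested.

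The named genes with the smallest p in the lower direction include matrix and adhesion genes. Col1a2 (chromosome 6 of GRCm38, 4504814 to 4541544, plus strand), a collagen I chain, was at 2.29, 1.58 and 3.25 CPM in Nras(G12D), against 18.7, 11.7 and 21.5 CPM in WT. Its log2 change of -2.87 ± 0.43 had the smallest unadjusted p of all genes (8.9e-06, adjusted p = 0.113 in limma). Col1a2 was also low in Tet2-/- at 2.14 ± 1.24 CPM and in the double mutant at 2.72 ± 0.699 CPM (SD, n = 3 each). Thbs1 (chromosome 2, 118111876 to 118127133, plus strand), which encodes the adhesive glycoprotein thrombospondin 1, was at 2.69, 7.05 and 29.9 CPM in Nras(G12D), against 304, 77.2 and 302 CPM in WT (log2 -4.53 ± 0.77, adjusted p = 0.146). Without Nras(G12D) library 3 both passed the test, at -3.13 for Col1a2 and -5.46 for Thbs1. Mrc2, a collagen uptake receptor, was at 0.148, 0.0258 and 0.991 CPM in Nras(G12D), against 6.36, 4.38 and 9.12 CPM in WT. Bace2, an aspartyl protease, was at 0.443, 0.0517 and 0.496 CPM in Nras(G12D), against 3.73, 3.29 and 8.6 CPM in WT. Ppp2r2b, a regulatory subunit of the phosphatase PP2A, was at 0.258, 0 and 2.04 CPM in Nras(G12D), against 9.26, 4.38 and 12.3 CPM in WT. Abcg3, a transporter gene, was at 7.23, 4.08 and 12.6 CPM in Nras(G12D), against 48.8, 26.8 and 58.6 CPM in WT (log2 -2.56 ± 0.47, adjusted p = 0.229). Tmem246 was at 4.61, 4.34 and 4.77 CPM in Nras(G12D), against 8.69, 11.6 and 12.6 CPM in WT (log2 -1.24 ± 0.26, adjusted p = 0.434), and Tns2, a tensin of adhesion sites, was at 0.185, 2.09 and 1.7 CPM in Nras(G12D), against 6.71, 5.91 and 11.3 CPM in WT.

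Most genes that define stromal cells did not pass the filter on low values. Of 20 stromal and endothelial genes 6 did, and 2 of those lay below WT (33.3%, beside 6.34% over all genes), Col1a2 and Emcn. Col1a1, the partner chain of collagen I, was at 0.258, 0.336 and 0.217 CPM in Nras(G12D), against 0.152, 0.469 and 0.403 CPM in WT. Col3a1, Cxcl12 and Lepr were below 1 CPM in all 6 libraries. The part of stromal cells in the Col1a2 value was not tested.

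**Figure D5:**
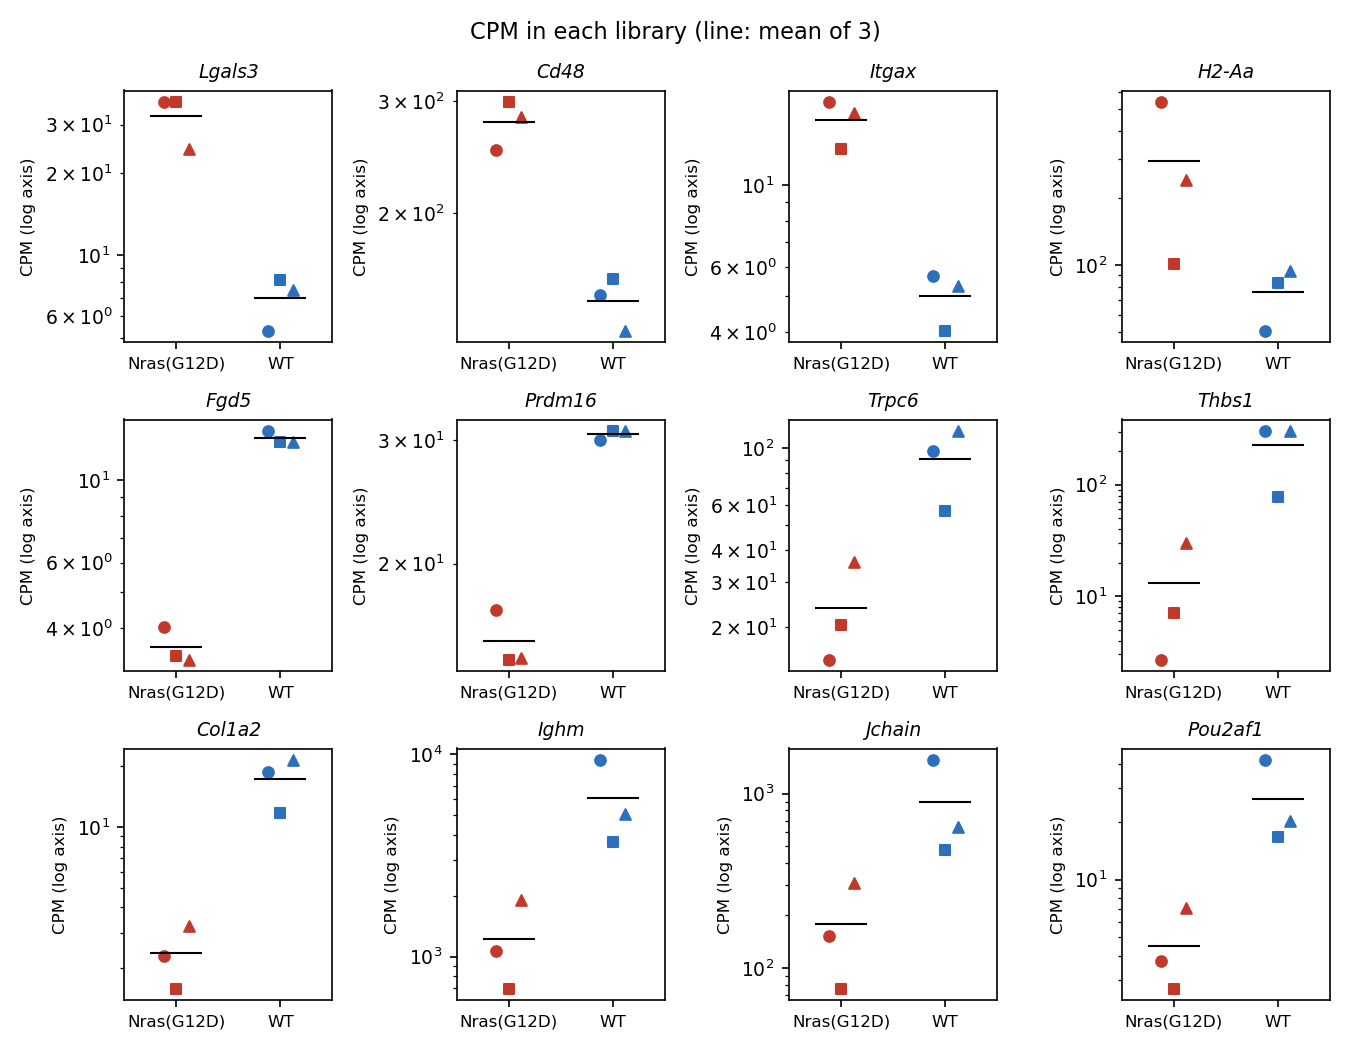
CPM of 12 genes is shown for each library on log axes, Nras(G12D) left in red and WT right in blue, with a line at the mean of 3. Groups do not overlap in any panel; Lgals3, Cd48, Itgax and H2-Aa are higher in Nras(G12D) and the other 8 lower, and WT library 1 is highest for Ighm, Jchain and Pou2af1.

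The remaining named genes with higher values were mostly membrane and signalling genes. Nrp1, a co-receptor for VEGF and semaphorins, was at 19.1, 21.3 and 13.2 CPM in Nras(G12D), against 3.96, 7.32 and 6.66 CPM in WT (log2 1.60 ± 0.39, adjusted p = 0.539). Btla, an inhibitory receptor of lymphocytes, was at 26.5, 50.8 and 29 CPM in Nras(G12D), against 15.3, 16.5 and 15.7 CPM in WT. Gcsam, a signalling adaptor gene of germinal centre B cells, was at 27.1, 24.6 and 22.2 CPM in Nras(G12D), against 10.9, 9.55 and 15.9 CPM in WT (log2 1.05 ± 0.26, adjusted p = 0.552). Gem, a small GTP-binding protein of the RGK family, was at 145, 218 and 159 CPM in Nras(G12D), against 31.2, 33.6 and 40.4 CPM in WT, a log2 change of 2.29 ± 0.89. Its adjusted p was 0.984, and 0.0854 in the fit to the 6 libraries alone. Tjp1, a tight junction scaffold, was at 11.1, 14.1 and 8.42 CPM in Nras(G12D), against 4.95, 5.44 and 2.75 CPM in WT, and Egfl7, an endothelial secreted factor gene, was at 123, 155 and 113 CPM in Nras(G12D), against 66.9, 96.5 and 66 CPM in WT. Gpr35, a G protein-coupled receptor gene, was at 10.4, 3.25 and 6.84 CPM in Nras(G12D), against 0.8, 1.92 and 2.6 CPM in WT. Pid1 was at 7.16, 6.51 and 2.48 CPM in Nras(G12D), against 0.495, 1.45 and 1.76 CPM in WT. St8sia1, a sialyltransferase gene, was at 5.68, 26.8 and 11.3 CPM in Nras(G12D), against 1.49, 2.39 and 1.61 CPM in WT. For Fn1, the fibronectin gene, 1 library carried the difference, at 3.25, 100 and 3.69 CPM in Nras(G12D) against 1.91, 1.8 and 2.93 CPM in WT, and its log2 change of 2.29 was 0.68 without library 2.

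Some cell cycle, metabolic and stress lists showed no separation of the groups, and others had a few separated members. None of 24 DNA replication genes, 24 mitosis genes, 19 p53 targets, 14 heat shock genes or 13 BCL2 family genes lay above or below WT; the medians were -0.03, -0.05, -0.03, -0.03 and 0.17. Of 18 G1 cyclins and E2F genes 3 lay above WT (16.7%, beside 5.48% over all genes), Ccnd1, Cdk6 and E2f8. With scaling by total counts 1 did (5.56%, beside 3.13%). Cdk6, the kinase partner of D cyclins, was at 895, 639 and 602 CPM in Nras(G12D), against 453, 556 and 450 CPM in WT (log2 0.53 ± 0.25, adjusted p = 0.984). Of 14 cell cycle inhibitors and quiescence genes 2 lay above WT (14.3%, beside 5.48%), Btg1 and Btg2. In the other direction 1 lay below (7.14%, beside 6.34%), Igf2r. Among 20 glycolysis genes 2 lay below WT (10%, beside 6.34%). Ldhb, the lactate dehydrogenase B gene, was at 44.4, 43.4 and 56.9 CPM in Nras(G12D), against 101, 78.9 and 93 CPM in WT. Of 19 unfolded protein response genes 16 had a change below 0, with a median of -0.29, and 3 lay below WT (15.8%, beside 6.34%). One of these 3, Ern1, which encodes the sensor IRE1, was at 66.7, 58.9 and 66 CPM in Nras(G12D), against 98.8, 89.9 and 109 CPM in WT. Of 32 interferon-stimulated genes 1 lay above (3.12%) and 2 below (6.25%), near the shares over all genes, with a median of -0.17.

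A second comparison with the Nras mutation as the labelled difference is the double mutant against Tet2-/-, which shares no library with the one above. These groups are called by their labels, which the Tet2 transcript total did not separate from WT: the double mutant had 62.6, 56.3 and 47.9 CPM and Tet2-/- had 35.9, 59.8 and 49.3 CPM, beside 56.8, 45.2 and 75.1 CPM in Nras(G12D) and 65.2, 50.7 and 61 CPM in WT. No source used here says which part of the gene the Tet2 allele removes, and this total does not check the labels. The libraries also differed in Y-linked transcripts: the double mutant had 175, 0.181 and 0.0351 CPM of Ddx3y, against 259, 179 and 0 CPM in Tet2-/-, so 1 library of the double mutant and 2 of Tet2-/- held them. Their part in the calls was not tested. In this comparison limma called 2676 genes with higher values in the double mutant (20.4%) and 1209 with lower values (9.23%). The sum of these calls, 3885, was 1637 without double mutant library 2, 1414 without double mutant library 3, 1203 without Tet2-/- library 1 and 1504 without Tet2-/- library 3. The split was 2248 higher and 2712 lower after quantile normalization and 1999 higher and 3751 lower after median centring, which shifted the median log2 change of all genes to -0.25 and -0.43. Of the 194 genes that lay above WT in Nras(G12D) at an unadjusted p below 0.05, 36 (18.6%) were called higher in the double mutant and 6 (3.09%) lower, shares under those of all genes. Of the 238 that lay below WT, 8 (3.36%) were called higher and 16 (6.72%) lower. Their median log2 changes were 0.09 and -0.46 in the double mutant against Tet2-/-, beside 1.05 and -1.48 in Nras(G12D) against WT and -0.01 over all genes in the double mutant. The reference here is Tet2-/-, which lay away from WT for some of these genes, as given below. These shares therefore cannot show that a change was absent on this background.

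Feedback inhibitors had higher values on both backgrounds, and the calls were in the double mutant. Of the 13 tested, 6 were called higher in the double mutant against Tet2-/- (46.2%, beside 20.4% over all genes) and none lower, with a median log2 change of 1.27. The count was 4 higher and 1 lower after quantile normalization (median 0.77) and 3 higher and 1 lower after median centring (0.85). It was 2 (15.4%) without double mutant library 2 or 3, beside 10.5% and 10.4% over all genes, 1 (7.69%, beside 8.7%) without Tet2-/- library 1 and 3 (23.1%, beside 10.8%) without Tet2-/- library 3. Spry1 was at 9.2 ± 1.99 CPM in the double mutant and 2.22 ± 1.41 CPM in Tet2-/- (SD, n = 3 each), a log2 change of 2.20 ± 0.51 (limma adjusted p = 0.00814, and 0.0501 without Tet2-/- library 1), beside 0.86 ± 0.51 in Nras(G12D) against WT. Spred2 was at 19.7 ± 4.21 CPM in the double mutant and 8.62 ± 1.31 CPM in Tet2-/-, a log2 change of 1.18 ± 0.32 (adjusted p = 0.0174), beside 0.94 ± 0.32 in Nras(G12D) against WT. That Spred2 call was lost without Tet2-/- library 1 or double mutant library 2 or 3, and after quantile normalization (0.63) or median centring (0.77). Egr1 was at 178 ± 13.1 CPM in the double mutant and 12.1 ± 7.4 CPM in Tet2-/-, a log2 change of 4.12 ± 0.64 (adjusted p = 0.00467), beside -0.34 ± 0.64 in Nras(G12D) against WT. The test of the difference between the changes on the 2 backgrounds gave 1.34 ± 0.72 for Spry1 (adjusted p = 0.288 in limma), 0.24 ± 0.46 for Spred2 (adjusted p = 0.766) and 4.46 ± 0.91 for Egr1 (adjusted p = 0.145).

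Stem cell genes and genes of dendritic cells and antigen presentation gave no common picture on the second background. Of 30 stem cell genes 4 were called higher (13.3%, beside 20.4% over all genes) and 1 lower (3.33%, beside 9.23%) in the double mutant, shares under those of all genes, with a median log2 change of -0.39, which was 0.08 without Tet2-/- library 1; after median centring 3 were called higher and 4 lower. Mecom was at 58.1 ± 1.86 CPM in the double mutant and 143 ± 72.1 CPM in Tet2-/- (log2 -1.19 ± 0.58, adjusted p = 0.125), beside -1.15 ± 0.58 in Nras(G12D) against WT. Trpc6 was at 30.5 ± 5.24 CPM in the double mutant and 23.6 ± 8.86 CPM in Tet2-/-, a log2 change of 0.42 ± 0.63, beside -1.97 ± 0.63 in Nras(G12D) against WT. Of 21 genes of dendritic cells and antigen presentation 3 were called higher in the double mutant (14.3%, beside 20.4% over all genes). In the other direction 1 was called lower (4.76%, beside 9.23%), and the median was 0.06. H2-Aa was at 530 ± 137 CPM in the double mutant and 591 ± 349 CPM in Tet2-/-, and Thbs1 was at 1.39 ± 0.572 CPM in the double mutant and 1.96 ± 0.942 CPM in Tet2-/-. The means of both these groups were above each WT library for H2-Aa and below each WT library for Thbs1 and Trpc6. Of the 10 named higher genes of smallest p, all but Egfl7 had a Tet2-/- mean above each WT library. Of the 10 lower ones, all but Tmem246 had a Tet2-/- mean below each WT library. These genes were picked by values that include the same WT libraries. Where Tet2-/- already lay away from WT, this comparison cannot show whether the Nras change is absent on this background. Ighm, high in the WT libraries, was at 1230 ± 289 CPM in the double mutant and 1310 ± 786 CPM in Tet2-/-. The test of the difference between the backgrounds, in limma, called 0 of 13099 genes (0%), the smallest adjusted p being 0.0942, with 2774 at an unadjusted p below 0.05. It called 484 without double mutant library 1 and 1676 without Tet2-/- library 2. Some lists changed sign between the comparisons. The median of the 20 lymphoid priming genes was 0.41 against WT and -0.61 against Tet2-/-. There 5 were called lower (25%, beside 9.23%) and 1 higher (5%, beside 20.4%), with 0 lower without double mutant library 3 or Tet2-/- library 3. The unfolded protein response median was -0.29 and 0.81, and the plasma cell median -0.92 and 1. Immediate early genes kept their sign, at 0.49 and 3.45.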

How the data were processed

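RNA of sorted LSK cells had been made into stranded mRNA libraries, per the labels' protocols. The deposited values are log2 CPM made by the authors, with 0.5 added to each count and 1 to the scaled library size; this was read from the values, 100% of which come back as whole counts within 1e-06. STAR 2.4.0f1, edgeR 3.14.0 and limma 3.28.21 are named in the submitters' processing notes, with builds mm10 and NCBIM37; no source used here gives the counting tool, its annotation or its use of strand, so overlapping and antisense genes may share reads. The column N2-3 was taken as Nras(G12D) library 2, the others by their description labels.

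The kept genes were fitted with limma 3.58.1 in R 4.3.3, with an intensity trend and a mean for each of 5 groups (10 residual degrees of freedom), two-sided, with Benjamini-Hochberg adjustment over 13099 genes; an adjusted p below 0.05 was called. CPM was computed from the recovered counts and scaled library sizes; a count of 0 allows up to 3 counts, 0.0775 to 0.117 CPM, for counting error only. Fold changes are on the deposited log2 scale, which understates low genes. The fit was tested on simulated data. Named genes are, in each direction, the 10 of smallest p and the 5 of largest change among genes with separate groups and, in the higher one, a mean of 5 CPM or more; then, without those conditions, up to 4 of smallest p per list and 9 fixed genes of the RAS pathway and Tet2. Other named genes (among them Tek, Procr, Hlf, Ndn, Clec1a, Vwf, Slamf1, Flt3, Lyz2, H2-Eb1, H2-DMb1, H2-DMb2, Xcr1, Batf3, Ngp, Ighm, Igkc, Igha, Ighd, Prdm1, Cd22 and Pax5) were chosen after their values were seen. A few genes that this rule names are not reported here. The members, the 36 gene lists and the tests were chosen with earlier results of these data known, and 3 further lists after values were seen. Positions are from GENCODE M21 (GRCm38).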

Additional observations from a re-analysis of the deposited data

Results flagged for a closer look

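Transcripts outside the genes kept were present in single Nras(G12D) libraries above all WT libraries. In Nras(G12D) library 2 the Y-linked genes Ddx3y, Eif2s3y, Uty and Kdm5d were at 91.5, 80.9, 75.5 and 60.3 CPM. The highest value in any other of the 6 libraries was 0.457 CPM for Ddx3y, 0.343 for Eif2s3y, 0.191 for Uty and 0.114 for Kdm5d, each in WT library 1. The same library held Itgb2l at 28.1, Lrg1 at 23.9, C5ar1 at 22.6, Olfm4 at 13.7 and Ly6g at 12.8 CPM, while each of the others had at most 1.64 CPM of any of these 5 genes. Nras(G12D) library 1 held Ighg1 at 26.6 CPM, as did WT library 3 at 18.9 CPM, with 0.031 CPM or less in the other 4, and it held AA465934 at 20.3 CPM, with at most 1.08 CPM in the other 5.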

How the results depend on the processing

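No gene was called between Nras(G12D) and WT with the filters, the other scalings, voom weights, no intensity trend or Y-linked genes as a covariate. Quantile normalization called 9 (4 higher, 5 lower), and 1 gene was called with only the 6 libraries compared or with array weights, whose estimation stopped before convergence (Igkv9-120 both times), and with an added count of 2 (Gm13986). Leaving out 1 library gave 0 to 7, the 7 without Nras(G12D) library 3 and all lower. Without a filter, groups did not overlap for 4687 genes in place of 1549, and for 4761 without Nras(G12D) library 2, a choice made after seeing the data. The interaction gave 3 after quantile normalization and 0 to 1676 with 1 library left out; the double mutant against Tet2-/- gave 1203 to 5162. With median centring the groups of 556 and 788 genes did not overlap.

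The shared replicate numbers were not treated as pairs. Deviations from the group means correlated at 0.02, 0.24 and -0.11 for same-numbered libraries, and at -0.49 to 0.57 for the others. With 3 libraries per group these values cannot show whether samples were matched. With a replicate block limma called 0 genes between Nras(G12D) and WT, 3753 between the double mutant and Tet2-/- and 0 for the interaction.

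Of 2106 log2 changes of named genes under the alternatives, 2091 kept their direction and their side of the threshold. No gene was called in the main fit, so keeping the side of the threshold meant that a gene was again not called. The alternatives also use mostly the same libraries, so this count is not a measure of how reliable the changes are. Lgals3 (2.28), Col1a2 (-2.93) and Thbs1 (-4.66) passed after quantile normalization, and Col1a2 (-3.13), Thbs1 (-5.46) and Ppp2r2b (-7.06) without Nras(G12D) library 3. Changes of sign concerned 3 genes with small changes: Tet2 (0.20 with voom weights, 0.22 with array weights, -0.21 to 0.15 with 1 library left out), Etv5 (-0.07, -0.09 and -0.04 to 1.05) and Nras (-0.02 to 0.18 with 1 library left out). The cause of these shifts was not tested. A gene with 0 counts is limited to 0.0775 to 0.117 CPM in these 6 libraries, so differences below that level were not detectable at this depth. An exact permutation test of 3 against 3 libraries cannot go below 0.1.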
